A study of Homo sapiens with 24 samples.

Results

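Newly made RNA of the EGR and NR4A transcription factor genes was followed in U2OS cells, a human osteosarcoma line, over the first hours of dexamethasone, a synthetic glucocorticoid. The set was a fixed list of 10 genes, found by symbol among the 61533 genes of the deposited count table: EGR1, EGR2, EGR3, EGR4, NAB1, NAB2, NR4A1, NR4A2, NR4A3 and IER2. The genes were chosen by family, and the family was selected on a measured value, the steep fall of EGR1 at 3 h against 0 h in the wt line, which was known when the list was drawn up. For that reason the changes of these 10 genes against 0 h, and their steps to 3 h, are given below as a description without p-values, and where calls are counted nothing is read from them. The tests are those of the step from 1 h to 2 h, of the difference in response between SoF and Ctrl, and of the levels of the lines over all times. The libraries of 1 h and 2 h took no part in the selecting value, but their step lies inside the selected fall. A decline of EGR1 and of genes that move with it was therefore likely at that step. Its p-values are not independent support for a fall of the family.

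There were 3 lines, each with a transgene of the NR3C1 product, the glucocorticoid receptor (GR), joined to HaloTag, a protein that can be stained with fluorescent ligands. The wt line carried wild-type GR, the SoF line carried the K492A mutant that was designed to separate RNA binding from the other functions of GR, and the Ctrl line carried the R470A mutant that served as the control for reduced DNA binding. In each line, cells were exposed for 1, 2 or 3 h to dexamethasone at 100 nM, or to 0.01% ethanol (called 0 h), and all dishes received 200 µM 4-thiouridine (4sU), a uridine analog that marks new transcripts, for the last 1 h. With 2 libraries for each of 12 combinations of line and hour, there were 24 libraries in all, 8 per line and 6 per time. GR was driven by a CMV promoter from a PiggyBac insertion in cells selected with puromycin and sorted by HaloTag signal. Each line was a single sorted pool, so the mutation and the pool cannot be told apart. Every dish, ethanol included, had its medium replaced with medium containing stripped serum when treatment began, and how long the ethanol dishes were kept is not stated. Hours in dexamethasone and hours since the change of medium therefore cannot be told apart. The biotin pulldown of labelled RNA was done with both replicates of a group together, so a group and its pulldown cannot be told apart either.

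EGR1 to EGR4 are zinc finger activators that bind a GC-rich site, and they are switched on within minutes by serum, growth factors and stress without a need for new protein. Their promoters are classic targets of serum response factor (SRF) and its ELK partners, which bind the CArG box. NAB1 and NAB2 are corepressors that dock on EGR proteins and damp their activity, and NAB2 is itself a known EGR target, so the group holds a negative feedback loop. NR4A1 (Nur77), NR4A2 (Nurr1) and NR4A3 (Nor1) are orphan nuclear receptors that work without a known natural ligand, are induced by growth factors and cyclic AMP, and bind the NBRE element as monomers. IER2 encodes a small nuclear protein and is another immediate-early gene that responds to serum.

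The EGR1 promoter is shown because it carries both kinds of site that link these genes, the CArG box of the upstream SRF route and the EGR site of the feedback. It was taken from RefSeq (GRCh38.p14) as the 250 bases before the annotated start, at chr5:138465229-138465478 on the plus strand, with the EGR site (GCGNGGGCG) and the CArG boxes in capitals.

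EGR1 promoter: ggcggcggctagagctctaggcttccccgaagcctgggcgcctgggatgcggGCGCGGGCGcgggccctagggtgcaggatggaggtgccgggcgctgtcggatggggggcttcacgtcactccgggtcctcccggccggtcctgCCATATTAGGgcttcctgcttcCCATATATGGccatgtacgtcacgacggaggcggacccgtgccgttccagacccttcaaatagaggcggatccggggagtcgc

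The EGR site began 198 bases before the start, and the 2 CArG boxes began 105 and 83 bases before it. The shorter stretches that follow carry the matches found in EGR2, NAB1 and NAB2, each as 30 bases read 5′ to 3′ on the strand of the gene with the match in capitals. They are shown because EGR2 shares a CArG box with EGR1 and because NAB1 and NAB2 carried EGR sites, as EGR1 did.

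EGR2 CArG box, chr10:62816418-62816447 (minus strand): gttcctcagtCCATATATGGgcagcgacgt
NAB1, 2 overlapping EGR sites on the opposite strand, chr2:190648846-190648875 (plus strand): cagcggcCGCCCCCGCCCCCGCccggcggc
NAB1 EGR site, chr2:190648898-190648927 (plus strand): actcggccgcGCGTGGGCGggagccggagc
NAB2 EGR site, chr12:57089042-57089071 (plus strand): tgtgcgtcctGCGGGGGCGgaggcgcggag

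RefSeq promoters were matched for 8 of the 10 genes, with 13 annotated starts between them. Among all 35116 RefSeq promoters, 8.41% held an EGR site on either strand in the same 250 bases and 1.16% held a CArG box. The cyclic AMP response element (TGACGTCA), the NBRE (AAAGGTCA) and the full glucocorticoid response element with consensus letters were searched in the same way and had no match in the 13 windows, against 1.65%, 1.05% and 0.00285% of all promoters. These are matches of letters in a short window. For EGR2, NAB1 and NAB2 the RefSeq starts used lie inside the GENCODE span of the gene, so these stretches lie within it too, except for the first base of the NAB2 stretch. The matches say nothing of whether a factor was bound.

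Depth and identity of the libraries were checked before the genes were described. Total counts ranged from 8106036 to 15820806 per library. Of 8 osteoblast-lineage markers fixed for U2OS, 4 had a median of 1 CPM (counts scaled to a common library size) or more: RUNX2, SPARC, COL1A1 and ALPL. The rest of that list was below this level. COL1A2 had a median of 0.209 CPM and BGLAP of 0.86, and SP7 was at 0 in 13 libraries and IBSP in 22. Of 7 markers of other cell types, MAP2 and EPCAM reached that level, and the 7 together summed to at most 41.9 CPM, against 601 to 1407 CPM for the osteoblast list. Nothing in the labels says that the replicates came from separate cultures, so p-values measure the spread between these samples, which may be technical. In a bulk sample, fewer cells making an RNA and less RNA per cell cannot be told apart.

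EGR1, the founding member of the family (ENSG00000120738.8, chr5:138465479-138469303, plus strand, hg38), had the most labelled RNA of the set before treatment. In the wt line the 2 libraries held 2953 and 5682 CPM at 0 h, 3282 and 3214 at 1 h, 753 and 314 at 2 h, and 209 and 229 at 3 h. In the SoF line they held 4799 and 4605 at 0 h, 4648 and 4587 at 1 h, 814 and 599.6 at 2 h, and 132 and 141 at 3 h. In the Ctrl line they held 5294 and 5076 at 0 h, 5193 and 6117 at 1 h, 716 and 805 at 2 h, and 169.9 and 190.2 at 3 h. The 0 h and 1 h libraries of EGR1 overlapped, those of 1 h and 2 h did not, and all 6 at 3 h were lower again. The wt estimate for 1 h against 0 h was -0.41 (SE 0.28), and it was -0.83 without the first 0 h library and 0.15 without the second, so the first hour is poorly fixed in that line. From 1 h to 2 h, averaged over the 3 lines, EGR1 fell 6.66-fold (log2 change -2.74, SE 0.17, adjusted p = 5.45e-10, edgeR quasi-likelihood test with Benjamini-Hochberg adjustment over 23651 genes), and the log2 change was -2.56 without the second wt library at 2 h, the lowest of its hour. Each line on its own gave a close estimate, -2.61 in wt, -2.71 in SoF and -2.89 in Ctrl on the log2 scale. Against 0 h, as a description, EGR1 stood at -4.30 (SE 0.32) in wt, -5.11 (SE 0.33) in SoF and -4.85 (SE 0.33) in Ctrl at 3 h. The wt value was -4.71 without the first 0 h library, the lowest of its hour, and -3.73 without the second.

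EGR2, a paralog best known for its part in peripheral myelin and in lymphocytes (ENSG00000122877.18, chr10:62811996-62819167, minus strand), followed the same course at a level more than an order of magnitude lower. In the wt line its libraries held 88.7 and 371 CPM at 0 h, 102 and 116 at 1 h, 22.9 and 12.1 at 2 h, and 6.56 and 7.48 at 3 h. In the SoF line they held 202 and 263, then 165 and 209, then 32.1 and 28.7, and finally 4.28 and 5.42 CPM. In the Ctrl line they held 274 and 301, then 217 and 348, then 27.9 and 46.5, and finally 5.68 and 5.76 CPM. All 6 libraries at 1 h lay above all 6 at 2 h, and those in turn lay above all 6 at 3 h. The 1 h to 2 h fall was 6.6-fold (log2 change -2.72, SE 0.24, adjusted p = 2.42e-08, edgeR). Averaged over lines, EGR2 at 3 h stood at -5.42 (SE 0.28) against 0 h, the lowest of the set. The wt 0 h libraries differed 4.19-fold, and the wt estimate of -5.03 at 3 h becomes -3.64 without the second of them and -5.74 without the first. EGR2 shares exonic sequence with a long noncoding RNA gene on the same strand, so its counts are uncertain to that extent.

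EGR4 and EGR3 were scarce. EGR4 (ENSG00000135625.8, chr2:73290929-73293701, minus strand), a family member studied mainly in neurons and germ cells, ranged from 4.85 to 42.7 CPM at 0 h, from 5.11 to 28.9 at 1 h, from 0.954 to 4.90 at 2 h and from 0.224 to 1.26 at 3 h. It fell 6.54-fold from 1 h to 2 h (log2 change -2.71, SE 0.42, adjusted p = 2.8e-05, edgeR). Both ends of its 0 h range came from the wt line, whose libraries held 4.85 and 42.7 CPM, an 8.8-fold gap. The described wt estimate of -4.95 at 3 h against 0 h ranged from -2.65 without the second 0 h library to -5.82 without the first, and it was -6.65 without the second 3 h library. Counts of EGR4 went down to 3 reads in a library, so its 3 h values are coarse. EGR3 (ENSG00000179388.9, chr8:22687659-22693480, minus strand), known for its role in muscle spindles and T cells, had between 6 and 54 reads in a library. EGR3 spanned 1.69 to 3.98 CPM at 0 h, 0.953 to 4.04 at 1 h, 1.09 to 2.75 at 2 h and 0.447 to 1.53 at 3 h. Its 1 h to 2 h change did not pass the test (log2 change -0.30, SE 0.26, adjusted p = 0.347, edgeR), and the libraries of those hours overlapped. EGR3 also overlaps an antisense gene in its exons.

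**Figure D1:**
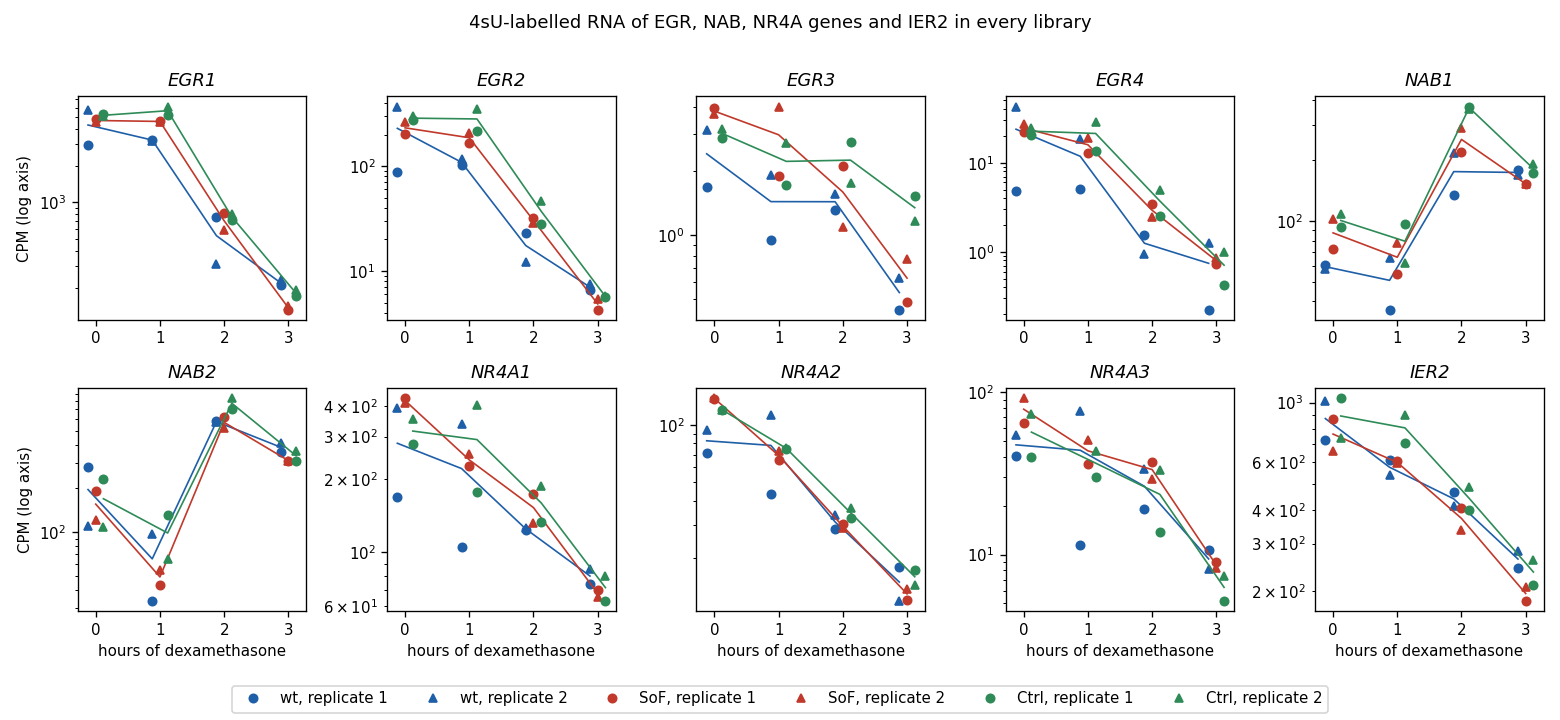
Labelled RNA in CPM (log axis) of each of the 10 genes in every library against hours of dexamethasone, coloured by line, with circles for replicate 1, triangles for replicate 2 and lines through the group means. EGR1, EGR2 and EGR4 drop between 1 h and 2 h, NAB1 and NAB2 rise at that step, and the wt libraries at 0 h lie far apart for EGR2 (88.7 and 371 CPM) and EGR4 (4.85 and 42.7 CPM).

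The corepressor genes moved the other way at the same hour. NAB2 (ENSG00000166886.13, chr12:57089043-57095476, plus strand) held 33.5 and 97.1 CPM in the wt libraries at 1 h and 583 and 570.1 at 2 h. It held 43.2 and 54.8 at 1 h and 621 and 518 at 2 h in SoF, and 132 and 64.9 at 1 h and 700.3 and 841 at 2 h in Ctrl. Every 2 h library lay above every 1 h library, and the rise was 9.29-fold (log2 change 3.22, SE 0.26, adjusted p = 5.74e-09, edgeR), the largest upward change of the set. The NAB2 level at 0 h was 282 and 110.2 CPM in wt, 190.3 and 121 in SoF and 231 and 108 in Ctrl, so replicate 1 was the higher in each line. Levels at 1 h were lower than that, with a mean estimate over the lines of -1.35 (SE 0.24) on the log2 scale, again a description. At 3 h NAB2 ranged from 309 to 410.3 CPM, below all 6 libraries at 2 h and above all 6 at 0 h. Against 0 h the 3 h estimates were 0.97, 0.99 and 0.98 in wt, SoF and Ctrl (SE 0.41 each), and they become 1.79, 1.37 and 1.65 without replicate 1 of the same line at 0 h and 0.46, 0.71 and 0.53 without replicate 2.

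NAB1 (ENSG00000138386.17, chr2:190646746-190692766, plus strand), which shares the EGR-binding domain of NAB2, held 36.3 and 65.2 CPM in wt at 1 h and 134 and 218 at 2 h. In SoF it held 54.3 and 77.9 CPM at 1 h and 219.7 and 289 at 2 h, and in Ctrl 96.8 and 62.0 at 1 h and 370.4 and 361 at 2 h. The 2 hours did not overlap, and NAB1 rose 3.94-fold (log2 change 1.98, SE 0.15, adjusted p = 3.11e-09, edgeR). NAB1 was at 153 to 191 CPM at 3 h and at 58.0 to 108 at 0 h. As a description, its 3 h estimates against 0 h were 1.55 (SE 0.26) in wt, 0.81 (SE 0.25) in SoF and 0.86 (SE 0.25) in Ctrl. For 3 h against 2 h the estimates were -0.01 (SE 0.25) in wt, -0.74 (SE 0.25) in SoF and -1.01 (SE 0.25) in Ctrl, and the difference between lines at this step was not tested. The wt 3 h libraries, 179 and 169.6 CPM, lay between the 2 wt libraries of 2 h. Both NAB genes have an exonic overlap with genes on the other strand, STAT6 in the case of NAB2. The same holds for NR4A1, with NR4A1AS, and for IER2, with long noncoding RNA genes. Only the name given to the table tells that strand was used in counting.

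The NR4A receptors declined less steeply from 1 h to 2 h than EGR1, EGR2 and EGR4. NR4A1 (ENSG00000123358.20, chr12:52022832-52059507, plus strand) held 169 and 394 CPM at 0 h, 105 and 338 at 1 h, 124 and 126 at 2 h and 74.3 and 85.7 at 3 h in wt. In SoF it held 433 and 411, then 226 and 255, then 174 and 132, then 70.2 and 65.6 CPM. In Ctrl it held 279 and 353, then 178 and 405, then 133 and 187, then 63.2 and 80.2 CPM. The 1 h and 2 h libraries of NR4A1 overlapped, since the first wt library at 1 h was already low. NR4A1 fell 1.72-fold from 1 h to 2 h (log2 change -0.78, SE 0.23, adjusted p = 0.00774, edgeR), and this call was lost without the second 1 h library of wt (-0.42, adjusted p = 0.0847) or of Ctrl (-0.54, adjusted p = 0.0588). Against 0 h its described 3 h estimates were -1.81 (SE 0.40) in wt, -2.63 (SE 0.42) in SoF and -2.14 (SE 0.41) in Ctrl, and the wt value was -2.31 without its first 0 h library and -1.06 without its second.

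NR4A2 (ENSG00000153234.15, chr2:156324437-156342348, minus strand), needed for midbrain dopamine neurons, showed the clearest decline of the 3 receptors at this step. It ranged from 70.9 to 139 CPM at 0 h, 43.3 to 113 at 1 h, 28.4 to 36.8 at 2 h and 11.9 to 18.0 at 3 h, and neither of the last 2 steps had overlapping libraries. From 1 h to 2 h it fell 2.35-fold (log2 change -1.23, SE 0.16, adjusted p = 2.35e-06, edgeR). NR4A3 (ENSG00000119508.18, chr9:99821855-99866891, plus strand) did not pass the test at this step (log2 change -0.58, SE 0.29, adjusted p = 0.109, edgeR). NR4A3 in the wt libraries at 1 h read 11.4 and 76.5 CPM, a 6.69-fold gap, and its estimate was -0.84 (adjusted p = 0.00319) without the first of them and 0.07 (adjusted p = 0.82) without the second. The 6 libraries of NR4A3 lay between 40.2 and 92.5 CPM at 0 h, between 13.7 and 37.4 at 2 h and between 5.18 and 10.7 at 3 h. IER2 (ENSG00000160888.7, chr19:13150411-13154911, plus strand) had the second highest level at 0 h, 659 to 1041 CPM. IER2 held 540.5 to 902 CPM at 1 h, 336 to 485 at 2 h and 184 to 282 at 3 h. It fell 1.57-fold from 1 h to 2 h with no overlap of libraries (log2 change -0.65, SE 0.11, adjusted p = 0.000104, edgeR).

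Of the 10 genes, 8 passed the test at the 1 h to 2 h step, 2 of them higher and 6 lower. That step is part of the fall on which the family was selected, so the count is not independent of the selection. Many genes moved at that step, and of all genes tested 44.9% were called, 22.7% higher and 22.1% lower. The median log2 change was -0.72 over the 10 genes and -0.04 over all genes tested. For 7 of the 10 genes the 1 h and 2 h libraries did not overlap, against 16.6% of all genes tested. All 10 genes had passed the filter on low counts.

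**Figure D2:**
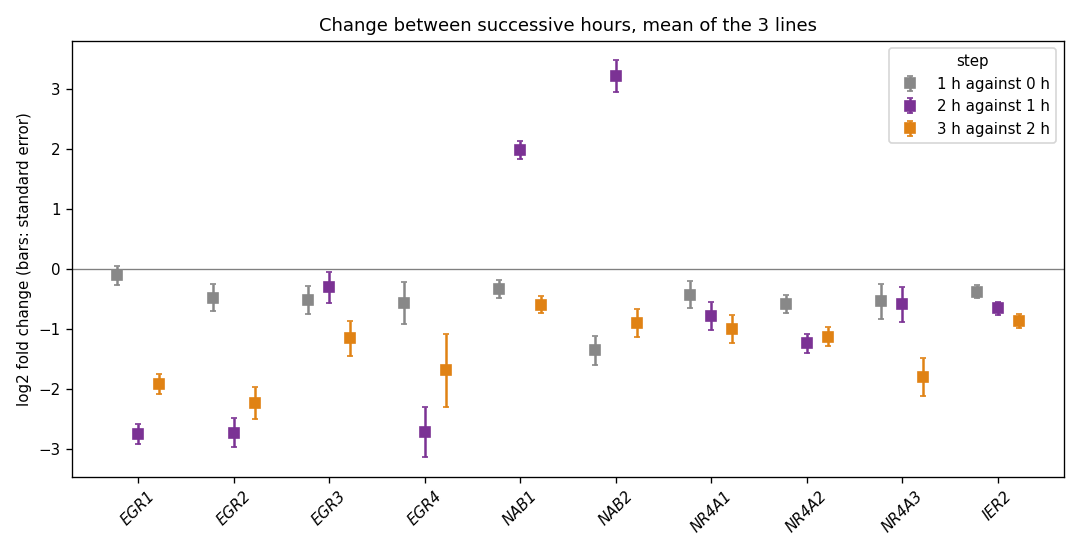
Log2 change of each gene between successive hours, averaged over the 3 lines, with bars of 1 standard error; grey is 1 h against 0 h, purple 2 h against 1 h and orange 3 h against 2 h. The middle step carries the largest changes of EGR1 (-2.74), EGR2 (-2.72) and NAB2 (3.22), and all 10 estimates of the last step are below 0.

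The outer steps are described only. In the first hour all 10 mean estimates were below 0, from -1.35 (SE 0.24) for NAB2 to -0.10 (SE 0.16) for EGR1. The median over all genes tested was 0.01. None of the 10 had separate libraries (0.592% of all genes did). From 2 h to 3 h all 10 were again below 0, from -2.23 (SE 0.27) for EGR2 to -0.59 (SE 0.14) for NAB1. The median over all genes tested was -0.02 at that step. The mean estimates of NAB1 and NAB2 were thus below 0 like those of the EGR genes in the last hour, although NAB1 in wt was at -0.01. At 3 h against 0 h, edgeR called 9 of the 10 genes in wt, 9 in SoF and 8 in Ctrl, where 10.7%, 19.3% and 14.2% of all genes were called. At 2 h the counts were 7, 8 and 7, with 4.6%, 5.68% and 7.95% of all genes, and at 1 h they were 0 in each line, with 0.156%, 0.165% and 0.0465%. These comparisons share the 0 h libraries of their line, and nothing is read from the counts because the list was drawn with such values known.

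**Figure D3:**
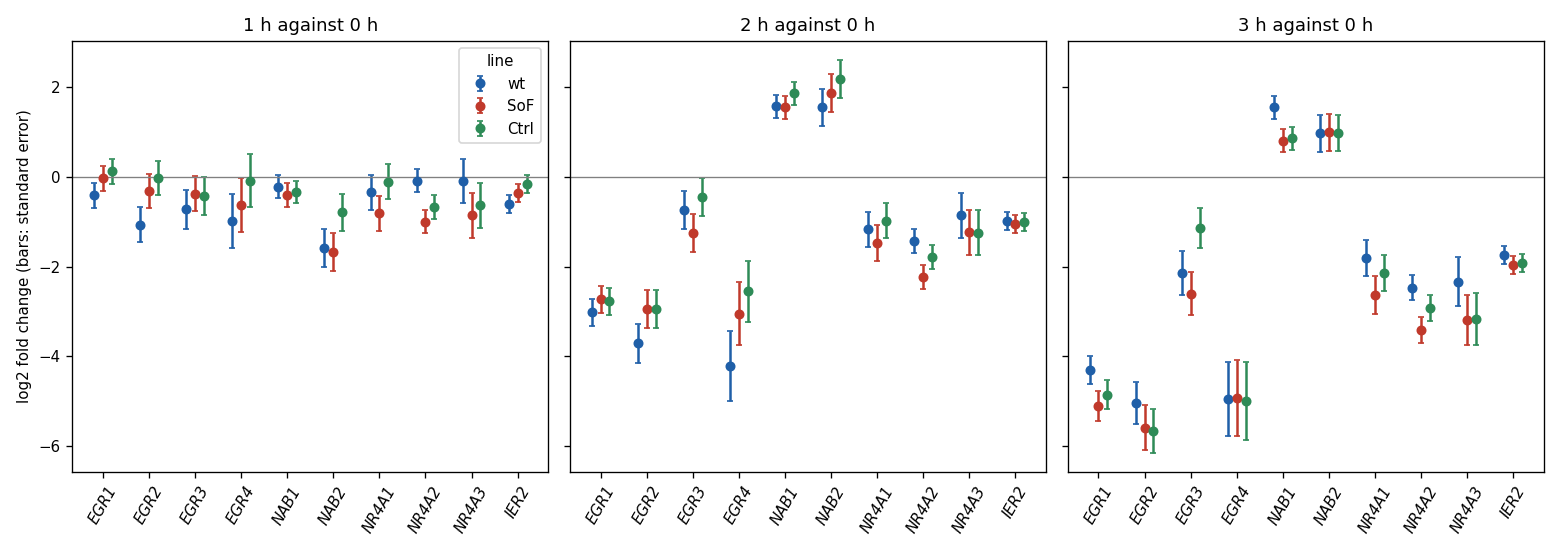
Log2 change of each gene against 0 h of the same line at 1 h, 2 h and 3 h (left to right), coloured by line, with bars of 1 standard error. At 3 h the EGR1, EGR2 and EGR4 points lie between -5.65 and -4.30 in the 3 lines, and the NAB1 and NAB2 points are the ones above 0.

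The order of levels was compared per kilobase of exon. At 0 h EGR1 had 1509 ± 303 CPM per kb (SD over 6 libraries) and IER2 274 ± 51.7, each apart from its neighbours in the order. EGR2 (67.5), NAB2 (60.8), NR4A1 (46.6), NR4A2 (27.7), NAB1 (16.9), EGR4 (9.96) and NR4A3 (9.67 CPM per kb) followed, and each overlapped the gene next to it. EGR3 was last and apart, at 0.615 ± 0.159 CPM per kb. At 2 h the corepressor and the activator met, with NAB2 at 223 ± 40.5 and EGR1 at 213 ± 60.3 CPM per kb and overlapping libraries. IER2 came next at 136 ± 17.2 CPM per kb and overlapped EGR1. At 3 h NAB2 stood alone at the top with 120 ± 14.3, followed by IER2 at 75.1 ± 11.9 and EGR1 at 56.9 ± 12.2 CPM per kb, which overlapped each other. NAB1 came next at 34.7 ± 3.07 CPM per kb, and the NR4A genes and the remaining EGR genes were at or below 10.0.

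The comparison of the lines bears on the question of the study, whether GR that binds RNA less well acts differently on its targets. None of the 10 genes passed the test for a different 3 h response between SoF and Ctrl by edgeR or by DESeq2, which gave EGR3 and EGR4 no adjusted p, and edgeR had 1 of the 10 at an unadjusted p under 0.05. Among all genes edgeR called 3 (0.0127%), with 671 at an unadjusted p under 0.05. The differences of SoF and of Ctrl from wt subtract the very wt values at 0 h and 3 h on which the family was selected, and they are given as a description. There edgeR called 0 of the 10 genes and 0 of all genes in both (0.0% and 0.0%), with 558 and 845 of all genes, and 2 and 0 of the 10, at an unadjusted p under 0.05. For EGR1 the response difference was -0.81 (SE 0.40) for SoF minus wt, -0.55 (SE 0.40) for Ctrl minus wt and -0.26 (SE 0.40) for SoF minus Ctrl on the log2 scale. Without the first wt library at 0 h the differences from wt were -0.39 and -0.14, and without the second they were -1.37 and -1.11. The scarce EGR3 had -1.46 (SE 0.67) for SoF minus Ctrl and 0.99 (SE 0.68) for Ctrl minus wt, and NR4A2 had -0.95 (SE 0.39) for SoF minus wt. NAB1 had -0.74 (SE 0.36) for SoF minus wt, -0.69 (SE 0.36) for Ctrl minus wt and -0.05 (SE 0.35) for SoF minus Ctrl. Neither difference of NAB1 from wt was called. The mean NAB1 level was 59.4 CPM in wt, 87.3 in SoF and 101 in Ctrl at 0 h. At 3 h it was 174, 153 and 182 CPM. With standard errors of 0.28 to 1.39, differences of the size of the smaller estimates were not detectable in this design.

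The level of each gene over all times, compared between the lines with time ignored, gave no call either. The study's methods compare each mutant with wt in this way, by DESeq2, and SoF against Ctrl was added here. In the fit that ignores time, 0 of the 10 genes were called for SoF against wt, Ctrl against wt and SoF against Ctrl (edgeR). Of all genes, 8.02%, 4.77% and 3.61% were called. At an unadjusted p under 0.05 there were 0 of the 10 in each, and 5308, 3988 and 3019 of the 21122 genes tested (edgeR). DESeq2 also called 0 in each. For EGR1 the differences were 0.29 (SE 0.84), 0.50 (SE 0.85) and -0.21 (SE 0.84), since the swing over time entered the error. With time added as a term, Ctrl stood above wt for NAB1 by 0.62 (adjusted p = 0.00229, edgeR) and for EGR2 by 0.70 (adjusted p = 0.0309, edgeR). In the same fit IER2 was lower in SoF than in Ctrl by 0.29 (log2 change -0.29, adjusted p = 0.0453, edgeR). That fit called 18.0% of all genes for Ctrl against wt, 12.7% for SoF against Ctrl and 28.3% for SoF against wt, where 0 of the 10 were called. In both fits the comparisons with wt take in the wt libraries at 0 h and 3 h, whose EGR1 values selected the family. They are therefore not independent of the selection. For EGR2 the first wt library at 0 h held 88.7 CPM, 4.19-fold below its replicate. NR3C1 reads, which count the GR transgene where it shares exons, also differed by line. Over all times they ran from 334 to 1595 CPM in wt, 1118 to 6273 in SoF and 1627 to 7658 in Ctrl. At 0 h they were at 552 to 824, 2428 to 2833 and 3202 to 3431 CPM, and each line was highest at 1 h. These are RNA values, and the paper states that sorted fractions were chosen to match nuclear GR protein between lines after dexamethasone. The part of the difference in NR3C1 reads in the line comparisons was not tested.

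**Figure D4:**
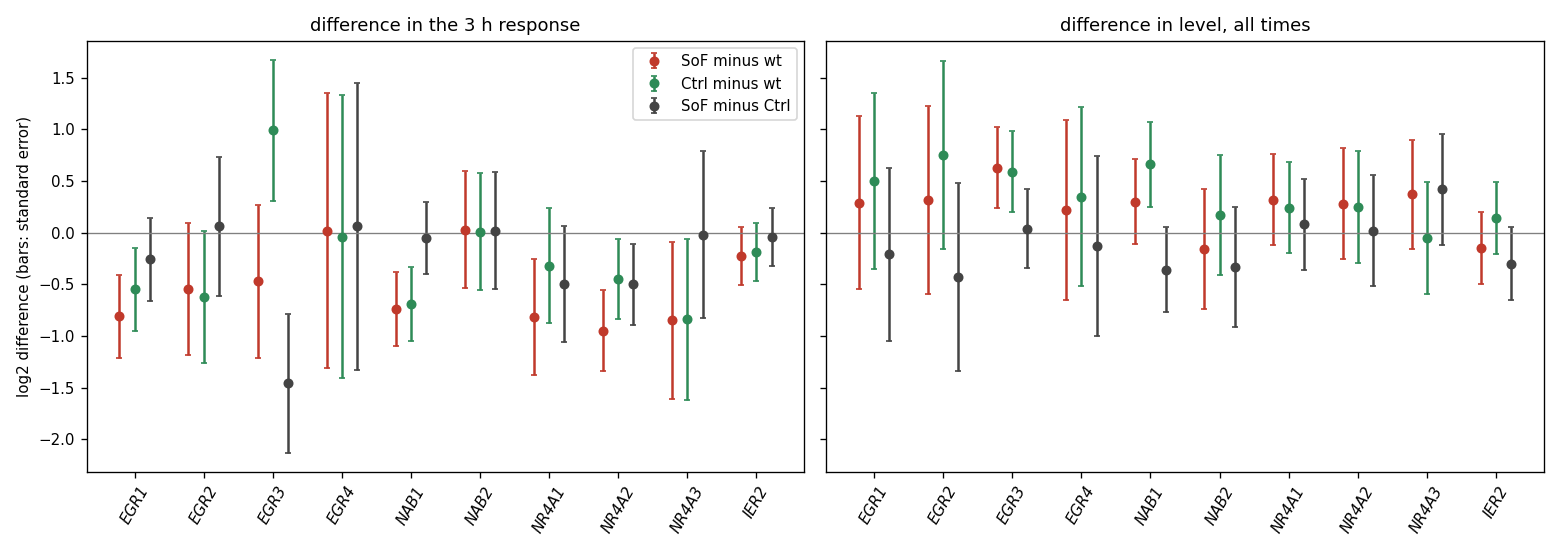
Log2 differences between lines for each gene, with bars of 1 standard error: on the left the difference in the 3 h response, on the right the difference in level with time ignored. Red is SoF minus wt, green Ctrl minus wt and black SoF minus Ctrl; the points of EGR1 in the response lie between -0.81 and -0.26, and none of the points shown had an adjusted p under 0.05.

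Factors that switch these genes on were followed from a list of 13 SRF, ELK, CREB, CRTC and MEF2 genes. At the 1 h to 2 h step 5 were called higher, 2 lower and 6 were not called, with a median log2 change of -0.02. Of all genes tested, 44.9% were called at that step (22.7% higher, 22.1% lower), with a median of -0.04. ELK3, an SRF partner, rose by 0.91 (SE 0.10, adjusted p = 2.8e-07, edgeR), from 59.0 to 92.3 CPM at 1 h to 125 to 160.3 CPM at 2 h. ELK1, the classic ternary complex factor, rose by 0.75 (SE 0.11, adjusted p = 1.13e-05, edgeR), and MEF2D, a regulator of NR4A1 in T cells and neurons, by 0.69 (SE 0.10, adjusted p = 1.6e-05, edgeR). SRF itself, singled out after its values were seen, fell by 0.98 on the log2 scale (SE 0.17, adjusted p = 7.76e-05, edgeR). The mean level of SRF over 6 libraries was 374 CPM at 0 h, 283 at 1 h, 143 at 2 h and 85.6 at 3 h. Of the RXR genes, whose products pair with NR4A1 and NR4A2, 2 of 3 were tested. RXRB rose by 0.55 (SE 0.10, adjusted p = 0.000101, edgeR), and RXRA did not pass (log2 change -0.23, SE 0.12, adjusted p = 0.112, edgeR).

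Other immediate-early genes were split at the step where EGR1, EGR2 and EGR4 fell. Of 25 such genes, 8 were called higher, 12 lower and 5 not called at 2 h against 1 h, with a median log2 change of -0.03. That step had 44.9% of all genes tested called (22.7% higher, 22.1% lower), with a median of -0.04. The smallest p-values belonged to PTGS2 (cyclooxygenase 2), ATF3 and FOS (AP-1 factors). FOS had -2.56 (SE 0.19, adjusted p = 1.82e-09, edgeR), with mean levels of 399.7 CPM at 0 h, 481 at 1 h, 80.2 at 2 h and 39.4 at 3 h. ATF3 had -2.25 (SE 0.15, adjusted p = 1.08e-09, edgeR) and PTGS2 -2.18 (SE 0.15, adjusted p = 1.08e-09, edgeR). The fall of EGR1 was thus of the same order as that of FOS. At 3 h against 2 h, 0 of the 25 were called higher and 19 lower, with a median of -0.78, and at 3 h against 0 h 3 were called higher and 21 lower. Of all genes tested, 10.0% were called at the first of these (5.43% higher, 4.57% lower) and 40.3% at the second (20.9% higher, 19.3% lower).

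**Figure D5:**
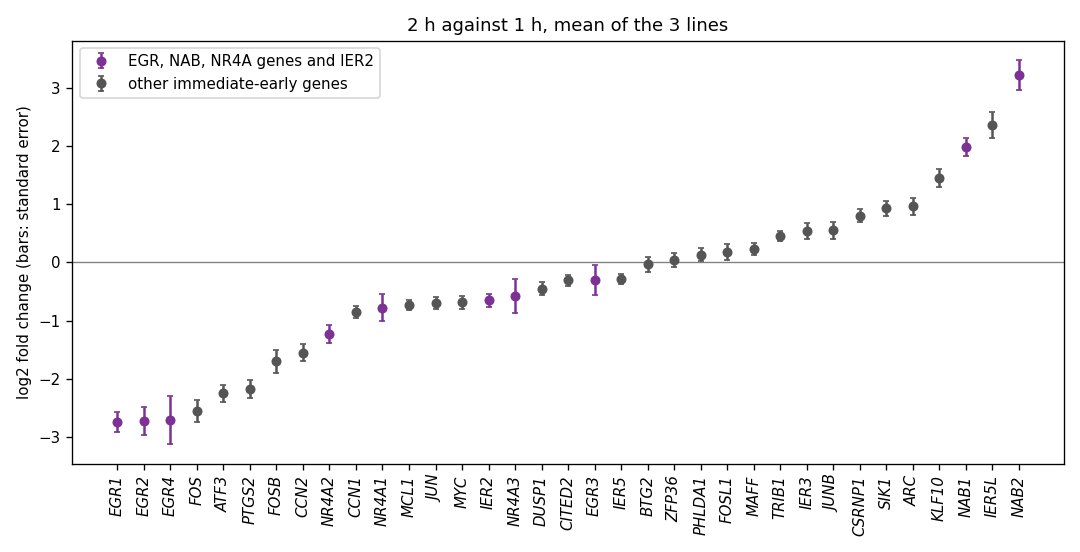
Log2 change at 2 h against 1 h, mean of the 3 lines with bars of 1 standard error, of the 10 genes (purple) and of 25 other immediate-early genes (grey), in order of the change. EGR1, EGR2, EGR4, FOS, ATF3 and PTGS2 sit at the low end, and NAB2 (3.22) lies above every other gene shown.

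Of 10 genes known to be induced by glucocorticoids, 7 were called higher and 0 lower at 1 h against 0 h, where 1.28% of all genes were called (0.731% higher, 0.55% lower). At 2 h against 1 h 6 were called higher and 2 lower, and at 3 h against 2 h 2 were higher and 3 lower. These steps had 44.9% and 10.0% of all genes called. FKBP5, a receptor chaperone and standard GR target, rose by 1.29 (SE 0.12, adjusted p = 4.79e-08, edgeR) from 1 h to 2 h, and its mean level was 27.1 CPM in ethanol and 229 by 3 h. ZBTB16 and KLF9, transcription factor genes under direct GR control, rose by 1.09 (SE 0.17, adjusted p = 2.17e-05, edgeR) and 0.90 (SE 0.14, adjusted p = 3.28e-05, edgeR). DUSP1 stands in both this list and that of the immediate-early genes.

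The genes whose course was most like that of EGR1 were sought among 19692 genes by Pearson correlation of log2 CPM over the 12 group means, which share their libraries. They were FOS (r = 0.991), TTN (0.988), PLCXD2 (0.987), LINC00662 (0.987) and ATF3 (0.986). Those most like NR4A1 were SMU1 (0.985), ARL14 (0.983), CSRP1 (0.979), RNF39 (0.978) and FOSB (0.977). Likeness in shape did not mean likeness in size. The mean of SMU1 was 80.0 CPM in ethanol and 67.7 at the last hour, whereas that of FOSB was 44.1 and 2.76.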

How the data were processed

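RNA labelled with 4sU was sequenced from 24 libraries. Per the labels and the methods of the study, the authors tagged molecular identifiers with UMI-tools 1.1.2, trimmed with Trim Galore 0.6.6, aligned to hg38 with STAR 2.7.3a, removed duplicates and counted exonic reads with featureCounts on the GENCODE 39 annotation. What they deposited are raw counts per gene, deduplicated and not normalized. Symbols and positions came from GENCODE release 44 and matched 61369 of 61533 identifiers (99.7%).

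Tests used R 4.3.3 with limma 3.58.1 and edgeR 4.0.16: TMM scaling, filterByExpr (minimum count 10, minimum total 15) and quasi-likelihood F tests, with p-values adjusted over all genes by Benjamini and Hochberg and calls made at 0.05. CPM used TMM-scaled library sizes, and log2 CPM a prior count of 2. A fit of 12 groups kept 23651 genes (biological coefficient of variation 14.2%) and a fit of line alone 21122 (24%). DESeq2 1.42.0 was an alternative. SE is the log2 change divided by the square root of F. Scripts were tested on simulated data. The methods of the study used DESeq2.

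The members and the lists were chosen with earlier results of these data known. The 10 members were named, and beyond them the 5 genes most like EGR1 and NR4A1 and up to 3 of each list with the smallest p at 2 h against 1 h. SRF falls outside that rule. Between lines, values are given for EGR1 and for members with an unadjusted p under 0.05 or a call under an alternative.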

Additional observations from a re-analysis of the deposited data

Results flagged for a closer look

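For each gene, the 6 libraries of a time and the 8 of a line were screened on the log2 CPM scale for a single library far from the rest, by its gap to the nearest neighbour over the whole range. Of 70 such sets 3 stood out, and chance alone marks about 1 in 20. EGR1 at 0 h had its lowest library in wt replicate 1, at 2953 CPM, with a gap of 0.681 of the range. EGR4 at 0 h was lowest in the same library, at 4.85 CPM (0.657). EGR1 at 2 h was lowest in wt replicate 2, at 314 CPM (0.679). In wt at 0 h, replicate 2 was the higher library for 8 of the 10 genes, NAB1 and NAB2 being the exceptions. The libraries were kept in the fits. Estimates of EGR1 and EGR4 with each wt library of 0 h left out, and of EGR1 at 2 h against 1 h without wt replicate 2 of 2 h, are given beside those results. Over 50 steps compared between lines, no gene had every library of a pair of lines moving in opposite directions.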

How the results depend on the processing

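The number of genes called at 2 h against 1 h was 8 under RLE scaling, DESeq2, a replicate block and a fit of these groups alone, 9 with no filter on low counts, and 7 to 9 when each replicate was left out in turn. NR4A1 lost its call without replicate 2 of wt or of Ctrl at 1 h (estimates from -0.98 to -0.42 over the replicates left out). NR4A3 ranged from -0.84 to 0.07, was above 0 without wt replicate 2 at 1 h, and passed the test when either wt replicate 1 of the 1 h group (-0.84) or Ctrl replicate 2 of the 2 h group (-0.84) was left out and with no filter on low counts (-0.57). Line differences in the 3 h response gave 0 calls under each alternative. Of the line comparisons with time ignored, an additive time term raised the calls to 2 for Ctrl against wt and to 1 for SoF against Ctrl. EGR1 for SoF against Ctrl ranged from -0.41 to 0.02 over the replicates left out. Replicate numbers were not taken to pair the samples over the whole series: deviations of same-numbered libraries correlated from -0.221 to 0.568 over 66 pairs of groups, 21 of them above 0.1. The 3 pairs of 0 h groups ran from 0.394 to 0.568. Pairs with other hours also reached this range, such as SoF at 0 h with SoF at 2 h (0.434). SoF at 2 h with Ctrl at 0 h had 0.396. These values are a hint from the data that some libraries share something by number. With the replicate number as a block 8 genes were called at 2 h against 1 h and 0 in each comparison of lines, so the pairing changed no count. Depth limits EGR3 and EGR4, with as few as 6 and 3 reads in a library.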
